A study of Mus musculus with 27 samples.

Results

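Lobular zones 1 and 2 of the maternal liver were compared on day 16 post coitum (dpc16). Zone 1 is by convention the part of the lobule that surrounds the portal vein, and zone 2 is the mid-lobular part that follows it along the blood flow. The comparison rests on 6 of the 27 libraries in the series, 3 from each zone. Genes were taken in when their FPKM (fragments per kilobase of transcript, scaled to the mapped fragments of the library) was at least 1 in 3 or more of these 6 libraries. This held for 11032 of the 21823 genes in the table. Of them, 9550 were at the minimum in all 6 libraries and 444 in exactly 3, while another 628 genes reached it in 2 libraries and stayed outside.

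All mice were labelled female, wild type and C57BL/6, and the study's methods give the substrain as C57BL/6N and an age of 8 to 14 weeks. The series also holds zones 1, 2 and 3 of non-pregnant (NP) mice and of mice at dpc8, and zone 3, around the central vein, at dpc16, with 3 libraries for each stage and zone and no further treatment. Each zone was cut from frozen sections with a laser, and 2 mm2 per zone was sequenced after removal of ribosomal RNA. The labels number the replicates from 1 to 3. The study calls them independent experiments, and no source used here says whether a number marks the same mouse in all zones, so a p-value measures the spread between these libraries. The cut areas hold every cell type of the zone, and in such bulk RNA fewer cells of a type and less RNA per cell cannot be told apart.

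Hepatocytes divide their work along the lobule. Those near the portal vein receive the most oxygen and are known for urea synthesis, gluconeogenesis and amino acid breakdown, while those near the central vein are known for drug oxidation, conjugation and glutamine synthesis. Wnt ligands from the endothelium of the central vein maintain the pericentral programme, and several of its genes, among them Glul, Axin2 and Tbx3, respond to Wnt signalling.

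The sequence just before the start of 4 genes that differed between the zones is shown to place them on the genome, Cyp2e1 and Lect2 from those lower in zone 1 and Aldh1b1 and Eci3 from those higher in zone 1. Capitals mark matches to 4 motifs searched on both strands. Each run of 250 bases reads 5′ to 3′ on the strand of the gene, ends at the base before the RefSeq start, and was taken from RefSeq on build GRCm38.p6.
Cyp2e1, chr7:140763569-140763818, forward strand: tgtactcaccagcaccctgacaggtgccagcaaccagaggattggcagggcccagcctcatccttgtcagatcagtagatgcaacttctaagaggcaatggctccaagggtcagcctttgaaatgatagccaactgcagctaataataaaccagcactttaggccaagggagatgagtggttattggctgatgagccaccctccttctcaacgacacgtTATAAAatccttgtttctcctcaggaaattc
Lect2, chr13:56548539-56548788, reverse strand: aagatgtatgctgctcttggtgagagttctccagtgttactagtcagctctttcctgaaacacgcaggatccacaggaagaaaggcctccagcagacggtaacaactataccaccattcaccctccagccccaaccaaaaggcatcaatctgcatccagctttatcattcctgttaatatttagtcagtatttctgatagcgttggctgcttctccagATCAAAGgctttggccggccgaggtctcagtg
Aldh1b1, chr4:45798772-45799021, forward strand: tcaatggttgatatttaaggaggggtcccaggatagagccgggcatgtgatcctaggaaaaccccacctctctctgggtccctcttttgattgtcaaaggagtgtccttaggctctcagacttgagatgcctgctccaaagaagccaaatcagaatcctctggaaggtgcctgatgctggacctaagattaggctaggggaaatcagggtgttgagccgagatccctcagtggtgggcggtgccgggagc
Eci3, chr13:34963810-34964059, reverse strand: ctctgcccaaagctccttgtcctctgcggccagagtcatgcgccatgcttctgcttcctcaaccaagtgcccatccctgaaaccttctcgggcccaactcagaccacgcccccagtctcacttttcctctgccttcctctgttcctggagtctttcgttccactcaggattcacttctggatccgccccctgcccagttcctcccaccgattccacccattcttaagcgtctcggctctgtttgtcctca

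The motifs were the TCF/LEF site CTTTGAT, through which Wnt signalling acts, the HNF4A site CAAAGTCCA, the C/EBP site TTGCGCAA and the TATA box TATAAA. Promoters were found for 13 of the 17 genes that passed the test below, 14 promoters in all. The TCF/LEF letters were in the promoter of Lect2, their first base 32 bases before the start, and in 3.21% of the 32851 promoters of the table. The HNF4A letters were in that of Cyp2c69 (0.384% of all promoters). TATAAA was in those of Cyp2e1, 31 bases before the start, Sult3a2, Tstd1 and 2210407C18Rik (12.4%). The C/EBP letters were in none of the 14 promoters (0.164% of all). A match of letters is a description and not a binding site.

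The low FPKM values fell on steps of whole reads, within a tolerance of 0.1 read, for 94.3% to 99.4% of the values examined in the 6 libraries. The depth was the one that matched these steps best, with an assumed fragment length of 200 bases, and the share on steps is at that same depth. The steps correspond to an effective depth of 10400000 to 33290000 reads, and 1 read on 1 kilobase was worth 0.03 to 0.0962 FPKM. One of the 6 libraries stood apart, zone 2 replicate 3. Its FPKM sum was 523854, against 866176 to 988500 in the other 5 libraries. Its log2 values correlated with those of the other zone 2 libraries at r = 0.789 and 0.792, whereas the remaining correlations within a zone ran from 0.947 to 0.97.

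The 12 hepatocyte core genes, such as Alb and Apoa1, summed to 71232 FPKM in zone 2 replicate 3 and to 250775 to 302686 FPKM in the other 5 libraries. The connective tissue and smooth muscle list summed to 5658 FPKM there and to 127 to 315 FPKM in the others. Y-linked genes, in mice labelled female, summed to 23.2 FPKM there, to 2.97 FPKM in zone 1 replicate 3 and to 0 in the other 4 libraries. This signal goes against the female label, so what zone 2 replicate 3 holds is in doubt. Zone 3 replicate 3 also stood apart, with an FPKM sum of 573644, 16.6 FPKM of Y-linked genes and 3299 FPKM of connective tissue genes. It correlated with the other zone 3 libraries at r = 0.862 and 0.863. Its levels are given below only beside zones 1 and 2, but it enters the pooled spread behind the tests of zones 1 and 2. The main counts and list medians are given with and without zone 2 replicate 3. In place of the 17 genes of the main test, 51 passed with connective tissue as a covariate, an alternative given at the end. The part of connective tissue was not tested beyond these fits.

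**Figure D1:**
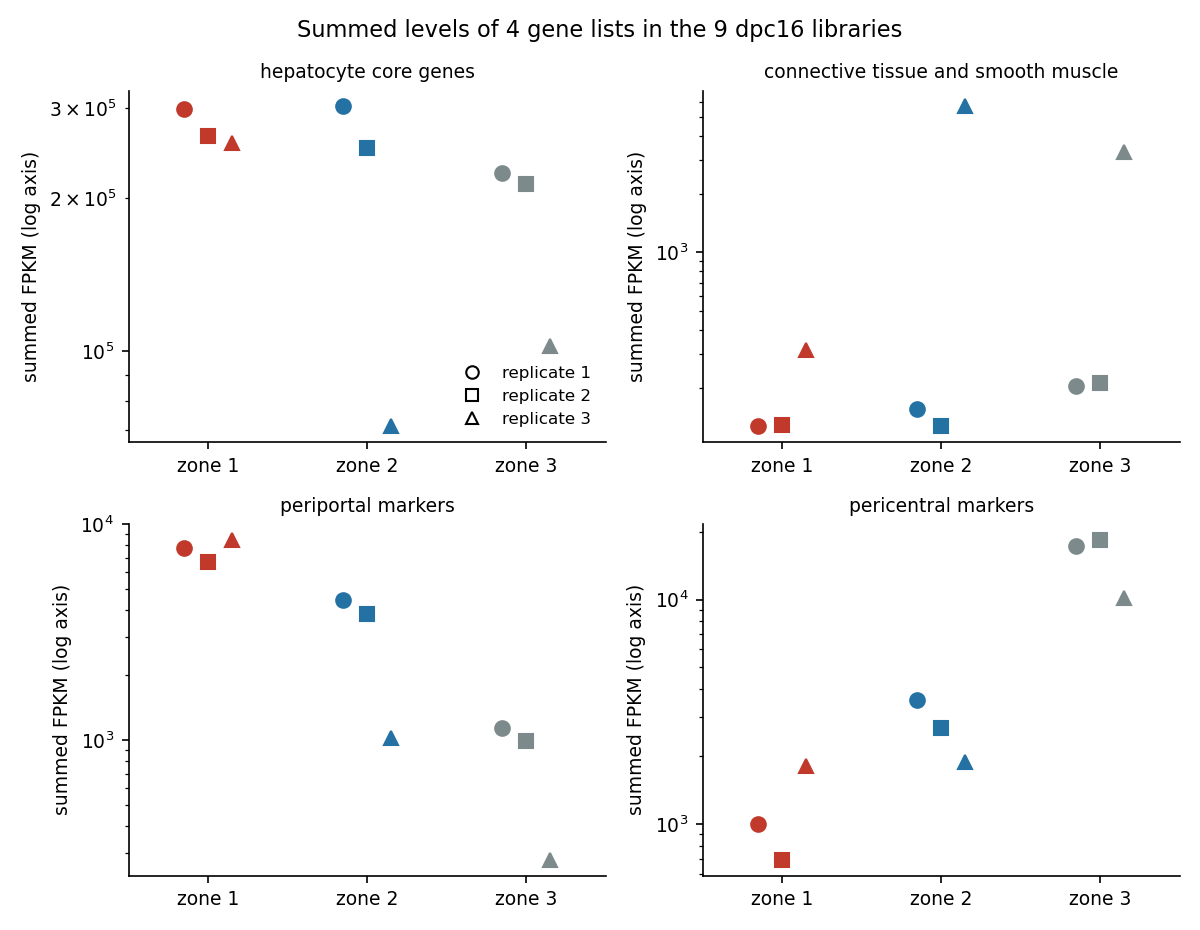
Summed FPKM of 4 gene lists (log axes) in the 9 dpc16 libraries, with zones on the horizontal axis, colours for zones and marker shapes for replicates. Zone 2 replicate 3 is lowest of the 9 for hepatocyte core genes, at 71232 FPKM, and highest for connective tissue, at 5658 FPKM, while zone 1 lies above zone 2 for periportal markers and below it for pericentral markers.

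Between zone 1 and zone 2, 17 of the 11032 genes passed an adjusted p of 0.05, which is 0.154% of the genes. The test was limma on log2(FPKM + 1) with Benjamini-Hochberg adjustment, and every difference below is zone 1 minus zone 2 on that scale. Of the 17 genes, 9 were higher in zone 1 (0.0816%), namely Ptgds, Tstd1, Aldh1b1, Eci3, Cryl1, Ccdc38, Lamc3, ccdc198 and 2210407C18Rik. The 8 lower genes (0.0725%) were Cyp2e1, Lhpp, Lect2, Sult3a2, Tbx3, Cyp2c69, Gulo and Gstm2. In all 17 the 3 values of one zone lay beyond the 3 values of the other, as they did for 5.04% of all genes with zone 1 above and 3.91% with zone 1 below. Lamc3, ccdc198 and 2210407C18Rik reached the minimum in the 3 zone 1 libraries and in no zone 2 library, so the choice of genes had already fixed their direction and lack of overlap. Before adjustment, 596 genes (5.40%) had p under 0.05, 364 of them higher and 232 lower. That number was 373 without zone 2 replicate 3, 1057 without zone 2 replicate 1, 1010 without zone 2 replicate 2 and 989 with the replicate block. The median difference over all genes was 0.01.

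**Figure D2:**
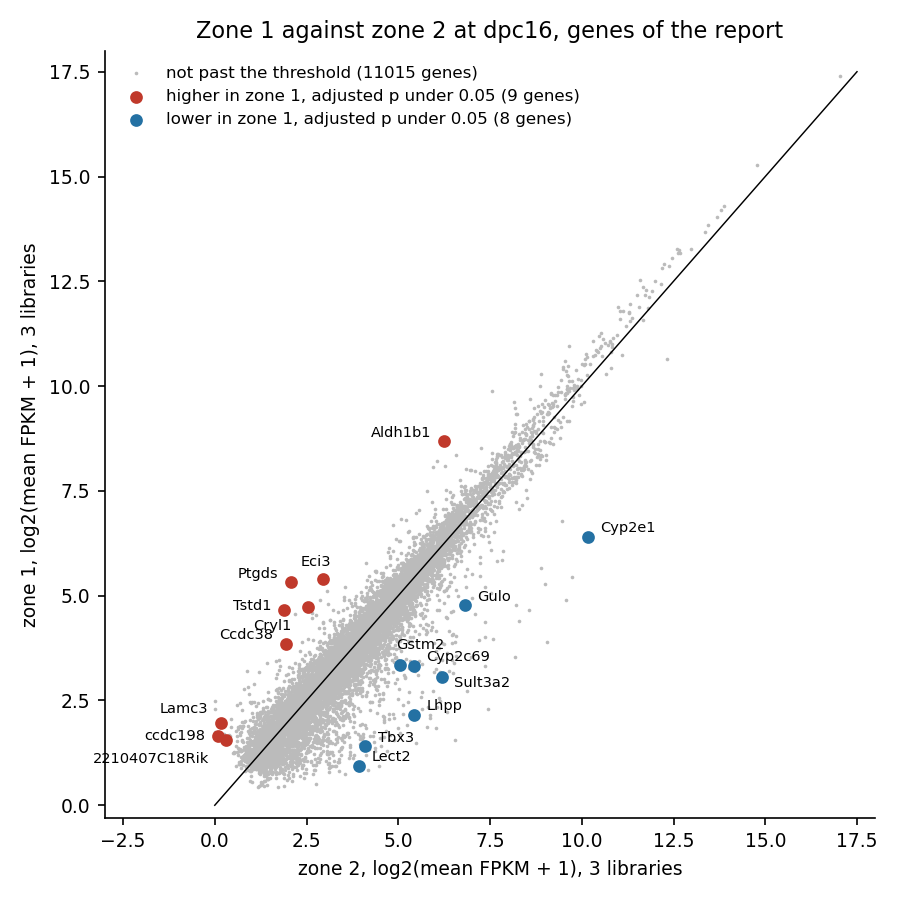
Mean level of the 11032 genes at dpc16 as log2(mean FPKM + 1), zone 2 on the horizontal and zone 1 on the vertical axis, each over 3 libraries. The line marks equal levels, with the 9 higher genes above it and the 8 lower genes below it.

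With the replicate number as a block, since same-numbered libraries of both zones deviated together, the count rose to 32 genes (0.290%), 13 higher (0.118%) and 19 lower (0.172%). They include 16 of the 17 genes, and Cryl1 was at an adjusted p of 0.0686 in the blocked limma fit. With the block and without zone 2 replicate 3 the count was 23 genes, 3 higher and 20 lower, of which 10 were among the 17. The 7 genes lost were Ptgds, ccdc198, Cryl1, Lamc3, Ccdc38, 2210407C18Rik and Tstd1, at blocked limma adjusted p from 0.0729 for Ptgds to 0.52 for Cryl1. Without the block and without zone 2 replicate 3 it was 16 genes, 5 higher and 11 lower, of which 11 were among the 17. Ptgds, ccdc198, Cryl1, Aldh1b1, Ccdc38 and Gstm2 then missed the threshold, at limma adjusted p from 0.0536 for Aldh1b1 to 0.19 for Ptgds.

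The count was also tied to the other libraries. It was 11 genes without zone 1 replicate 1 or replicate 2, 10 without zone 1 replicate 3, 16 without zone 2 replicate 1 and 10 without zone 2 replicate 2. Without the block, Cyp2e1, Lect2, Lhpp, Cyp2c69 and Eci3 passed whichever of the 6 libraries was left out. So did 2210407C18Rik, which with the block and without zone 2 replicate 3 was at an adjusted p of 0.142 in limma. These calls rest on the spread pooled over all stages. Fitted on the 6 libraries alone limma called 0 genes (363 at an unadjusted p under 0.05), and on the dpc16 libraries it called 2, Lect2 and Slco1a1. Of the 17 genes, the other 11 missed the threshold without at least 1 library, and all 17 kept their direction under every setting run.

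The 8 lower genes include 4 pericentral markers. Cyp2e1, the cytochrome P450 that oxidises ethanol, lies on chromosome 7 from 140763739 to 140774987 (mm10, GENCODE). It stood at 103, 98.9 and 49.9 FPKM in zone 1 and 1564, 1190.2 and 687 FPKM in zone 2 (replicates 1 to 3, as in all such lists). The zones lay far apart, and zone 3 was higher again at 8168, 8257 and 4105 FPKM. Its difference was the largest fall of the 17 genes (-3.75, SE 0.41, limma adjusted p = 9.56e-05), and it was -4.08 without zone 2 replicate 3.

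Lect2, a secreted protein that attracts leukocytes, lies on chromosome 13 from 56542464 to 56548502. It had 1.21, 0.64 and 0.941 FPKM in zone 1 and 13.7, 12 and 16.9 FPKM in zone 2. Both zones were tight, and zone 2 replicate 3 was here the highest of its zone (-2.98, SE 0.37, limma adjusted p = 0.000327). Lhpp, a phosphatase that acts on phosphohistidine, had 5.25, 3.82 and 1.35 FPKM in zone 1 and 57.1, 55.2 and 14.8 FPKM in zone 2. Replicate 3 was the lowest in both zones, and the zones did not overlap (-3.17, SE 0.43, limma adjusted p = 0.00108). Gulo, the enzyme of the last step of vitamin C synthesis, had 28.2, 23.4 and 27.1 FPKM in zone 1 and 161, 111 and 63.6 FPKM in zone 2. The spread was narrow in zone 1 and wide in zone 2 (-1.96, SE 0.33, limma adjusted p = 0.0107).

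Tbx3, a T-box transcription factor of the Wnt response and one of the zone genes that the study names, lies on chromosome 5 from 119670669 to 119684724. It had 1.83, 2.49 and 0.68 FPKM in zone 1 and 14.6, 25.5 and 8.47 FPKM in zone 2, with zone 3 at 63.8, 77.2 and 35.7 FPKM. The levels rose from zone to zone with no overlap (-2.63, SE 0.48, limma adjusted p = 0.0198).

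The other 3 lower genes are enzymes of drug oxidation and conjugation. The cytochrome P450 Cyp2c69 had 11.6, 8.72 and 6.85 FPKM in zone 1 and 54.7, 31.3 and 39.6 FPKM in zone 2 (-2.08, SE 0.33, limma adjusted p = 0.00469). The sulfotransferase Sult3a2 had 11, 8.18 and 2.89 FPKM in zone 1 and 91, 105 and 19.2 FPKM in zone 2 (-2.95, SE 0.57, limma adjusted p = 0.0327). Both have close copies, Sult3a1 and other Cyp2c genes, so that with only unique reads kept their levels are uncertain. Gstm2, a glutathione S-transferase, had 7.89, 7.07 and 12.4 FPKM in zone 1 and 30.7, 27.1 and 38.5 FPKM in zone 2 (-1.73, SE 0.34, limma adjusted p = 0.0327). In contrast to Sult3a2, its replicate 3 was the highest of both zones.

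Among the genes higher in zone 1, Aldh1b1 was the most abundant. This mitochondrial aldehyde dehydrogenase, a member of the periportal list, lies on chromosome 4 from 45799022 to 45804604. It had 342, 332 and 566 FPKM in zone 1 and 115, 84.1 and 26.2 FPKM in zone 2, and zone 3 was nearly without it at 0.6, 0.468 and 0.146 FPKM. Replicate 3 was the highest of zone 1 and the lowest of zone 2 (2.64, SE 0.45, limma adjusted p = 0.0107). The difference was 2.02 without zone 2 replicate 3.

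Ptgds, a synthase of prostaglandin D2, had the largest rise of the 17 genes and a wide spread in zone 1, with 80.2, 25 and 12.3 FPKM in zone 1 and 4.46, 3.77 and 1.35 FPKM in zone 2 (2.95, SE 0.58, limma adjusted p = 0.0327). Tstd1, which has a sulfurtransferase domain, had 21.9, 18.6 and 32 FPKM in zone 1 and 2.18, 3.3 and 2.68 FPKM in zone 2 (2.74, SE 0.46, limma adjusted p = 0.00979). For Tstd1, zone 2 replicate 3 lay between the other zone 2 libraries. Eci3, an enoyl-CoA isomerase of fatty acid breakdown, lies on chromosome 13 from 34946614 to 34963810 and had 34.5, 28.9 and 60.2 FPKM in zone 1 and 10.7, 6.63 and 2.9 FPKM in zone 2 (2.51, SE 0.37, limma adjusted p = 0.00309). Cryl1, which oxidises L-gulonate, had 24.9, 24.8 and 27.3 FPKM in zone 1 and 6.23, 6.48 and 1.74 FPKM in zone 2 (2.33, SE 0.45, limma adjusted p = 0.0327). Its 3 zone 1 values were nearly equal, and zone 2 replicate 3 was the lowest value.

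The other 4 higher genes were at low levels. Ccdc38, a coiled-coil protein, had 13.6, 11.7 and 15.3 FPKM in zone 1 and 4.66, 3.06 and 0.706 FPKM in zone 2 (2.09, SE 0.36, limma adjusted p = 0.0116). Lamc3, a laminin chain of basement membranes, had 1.75, 4.23 and 2.68 FPKM in zone 1 and 0.164, 0 and 0.201 FPKM in zone 2 (1.75, SE 0.30, limma adjusted p = 0.0116). Both were under 1 FPKM in zone 2 replicate 3. The coiled-coil gene ccdc198 had 2.49, 1.35 and 2.61 FPKM in zone 1 and 0.183, 0 and 0 FPKM in zone 2 (1.55, SE 0.30, limma adjusted p = 0.0327). The gene 2210407C18Rik had 2.27, 1.18 and 2.41 FPKM in zone 1 and 0.376, 0.27 and 0.0444 FPKM in zone 2 (1.25, SE 0.20, limma adjusted p = 0.00469). With 1 added before the log, differences at such levels are understated.

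**Figure D3:**
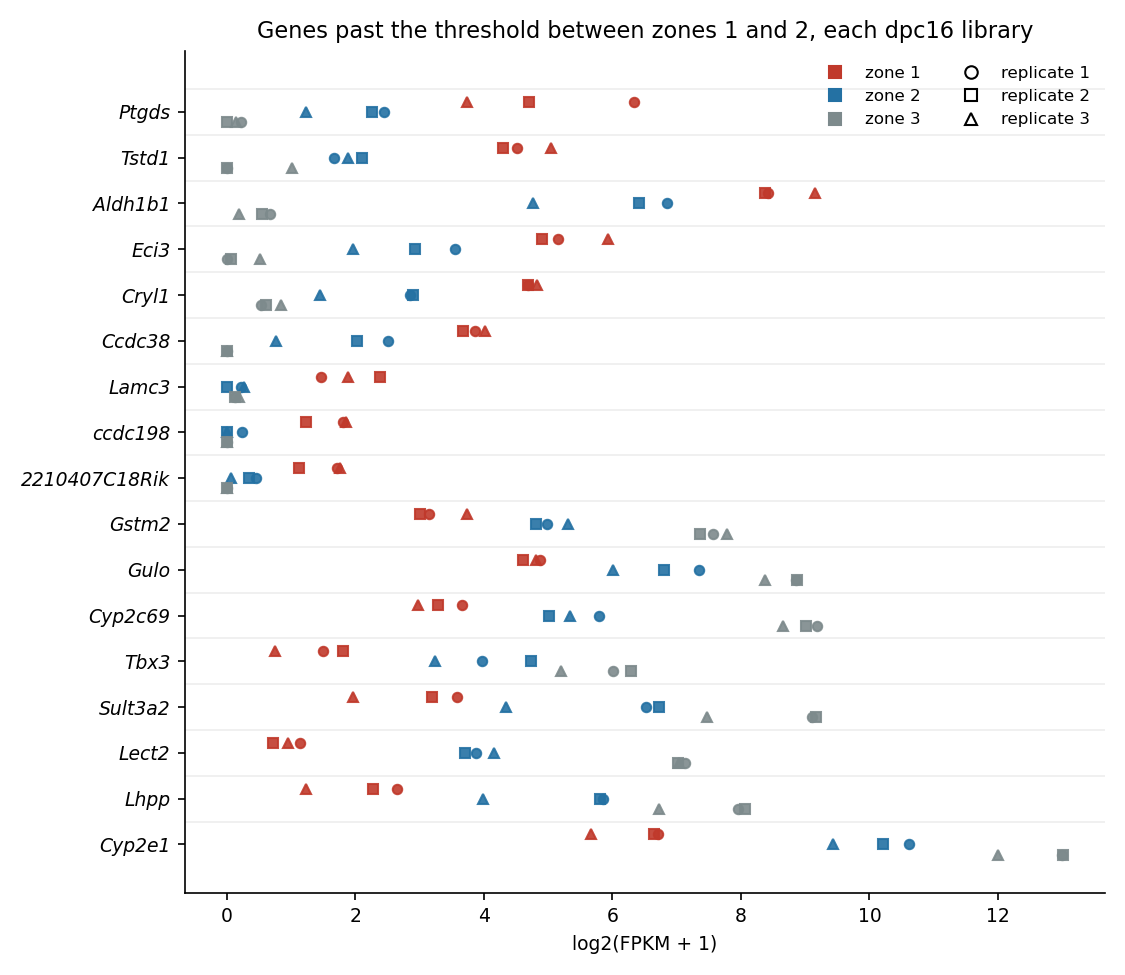
Level of the 17 genes past the threshold in each dpc16 library as log2(FPKM + 1), with colours for zones and marker shapes for replicates. Zone 1 and zone 2 do not overlap in any of the 17 genes, and the zone 2 mean lies between those of zones 1 and 3 in all 17.

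The levels of the 17 genes were also set beside those of zone 3. The mean of zone 2 lay between zones 1 and 3 in 17 of 17, and in 35.5% of all genes (16 of 17 and 36.5% without zone 2 replicate 3). Between zone 2 and zone 3, a comparison that shares the zone 2 libraries, 10 of the 17 passed the test, beside 0.499% of all genes. In fits chosen after seeing the data, it was 9 without zone 3 replicate 3 (0.344%) and 11 without replicate 3 of both zones (0.48%). Lamc3, ccdc198 and 2210407C18Rik had little of a second step, at 0.01, 0.08 and 0.29. For Cyp2e1 the fitted differences were -3.75 between zones 1 and 2 and -2.58 between zones 2 and 3. Tbx3 had -2.63 and -1.86, and Tstd1 had 2.74 and 1.54. For Aldh1b1 the second value was the larger, at 2.64 and 5.53, and likewise for Cyp2c69 at -2.08 and -3.57.

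No gene passed the limma test of whether both steps differed (306 genes, or 2.77%, at an unadjusted p under 0.05, and 0 past the threshold with the replicate block). The unadjusted count was 641 without zone 2 replicate 1, 527 without zone 2 replicate 2, 367 without zone 2 replicate 3 and 526 without zone 3 replicate 3. Glul, which makes glutamine and marks the hepatocytes next to the central vein, had the smallest p. It stood at 113, 127 and 145 FPKM in zone 1 and 138, 137 and 101 FPKM in zone 2, and at 2039, 3152 and 1349 FPKM in zone 3. Zones 1 and 2 overlapped (0.05, SE 0.43, limma adjusted p = 0.983), whereas zone 3 lay far above both. Its steps differed by 4.09 (SE 0.74, limma adjusted p = 0.07). Under quantile normalization the difference between zones 1 and 2 was -0.02, and with the hepatocyte core set equal in all libraries it was -0.56, so its sign depended on the scaling. The next smallest p belonged to Ank, a pyrophosphate transporter, with 13.7, 11.8 and 18.4 FPKM in zone 1 and 9.14, 9.8 and 10.6 FPKM in zone 2, and Grap, a signalling adaptor, with 0.985, 1.54 and 1.46 FPKM in zone 1 and 2.2, 10.4 and 4 FPKM in zone 2.

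Of the 6 Wnt target genes in the comparison, Tbx3 passed the test, and 1 of the 6 lay below with no overlap (3.91% of all genes). The median of the list was -0.18. Without zone 2 replicate 3 it was -0.37, and 4 of the 6 lay below with no overlap beside 9.23% of all genes, namely Tbx3, Notum, Rnf43 and Tcf7. The members other than Tbx3 and Axin2 were picked after their values were seen. Axin2, a feedback inhibitor of Wnt signalling, did not reach the minimum, with 0.696, 0.283 and 2.16 FPKM in zone 1 and 0.972, 1.26 and 0.325 FPKM in zone 2 and 7.9, 19.6 and 6.24 FPKM in zone 3. Notum, which inactivates Wnt ligands, had 3.17, 1.51 and 1.25 FPKM in zone 1 and 7.63, 7.24 and 1.57 FPKM in zone 2. Rnf43, which removes Wnt receptors, had 5.19, 7.17 and 7.48 FPKM in zone 1 and 8.19, 10.1 and 5.15 FPKM in zone 2. Znrf3, its relative, had 3.41, 3.14 and 3.37 FPKM in zone 1 and 3.28, 3.29 and 2.35 FPKM in zone 2. With all libraries zones 1 and 2 overlapped for these 4, and zone 2 replicate 3 was the lowest of its zone for each. Tcf7, a transcription factor of Wnt signalling, had 5.14, 3.79 and 3.31 FPKM in zone 1 and 5.18, 5.36 and 1.83 FPKM in zone 2.

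Cyp17a1 and Cyp1a2, which the study also names by zone, were apart in every library and did not pass the test. Cyp17a1, a steroid hydroxylase, had 933, 753 and 672 FPKM in zone 1 and 391, 401 and 64.7 FPKM in zone 2 (1.84, SE 0.63, limma adjusted p = 0.727), and its difference was 0.97 without zone 2 replicate 3. Cyp1a2, which oxidises caffeine, had 17, 14.2 and 31.8 FPKM in zone 1 and 104, 61.3 and 70.7 FPKM in zone 2 (-1.90, SE 0.53, limma adjusted p = 0.301), and its adjusted p was 0.0501 in the blocked fit. The study drew these genes from the same libraries, so they are not independent evidence of a direction.

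All 13 periportal markers had a positive difference, from 1.01 to 2.64 with a median of 1.84, beside 0.01 over all genes. In 12 of the 13 zone 1 lay above zone 2 with no overlap (5.04% of all genes), and Aldh1b1 passed the test. As with all lists here, the members were chosen with earlier results of these data known. These shares are therefore a description and not independent evidence of a direction. The following members were picked after their values were seen. Cyp2f2, a cytochrome P450 of the periportal region, had 778, 574 and 1467 FPKM in zone 1 and 285, 177 and 101 FPKM in zone 2 (limma adjusted p = 0.0824). Hsd17b13, a protein of lipid droplets, had 332, 287 and 201 FPKM in zone 1 and 124, 86 and 19.1 FPKM in zone 2 (limma adjusted p = 0.0689). Sds, which breaks down serine, had 224, 331 and 241 FPKM in zone 1 and 71.9, 95.9 and 13.6 FPKM in zone 2 (limma adjusted p = 0.15). Zone 2 replicate 3 was the lowest library for each, and without it the median of the list was 1.35, with 12 of 13 again not overlapping beside 10.2% of all genes.

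Of 13 pericentral markers 12 entered the comparison, and Rhbg, an ammonium transporter, did not reach the minimum. A negative difference was found in 10 of the 12, with a median of -2.07, and in 9 zone 1 lay below zone 2 with no overlap (3.91% of all genes). Cyp2e1, Lhpp, Lect2 and Gulo passed the test, and Slc1a2, Oat and Sult3a1 passed in addition with the replicate block. Slc1a2, a glutamate transporter, had 6.49, 10.2 and 4.85 FPKM in zone 1 and 41.5, 40.1 and 25.5 FPKM in zone 2 (blocked limma adjusted p = 0.0366, and 0.181 without zone 2 replicate 3). Oat, which turns ornithine towards glutamate, had 36.6, 24.4 and 6.93 FPKM in zone 1 and 171, 178 and 56.5 FPKM in zone 2 (blocked limma adjusted p = 0.00086, and 0.0149 without that library). Replicate 3 was the lowest of each zone for both. Cyp2c29 and Glul had positive differences, and Cyp2c29, a cytochrome P450, overlapped with 482, 233 and 1225 FPKM in zone 1 and 441, 251 and 202 FPKM in zone 2. Without zone 2 replicate 3 the median was -2.36, and again 9 of the 12 lay below with no overlap, beside 9.23% of all genes. This list too was chosen with earlier results of these data known, so its shares are a description.

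The other 13 genes that the block added, named here after their values were seen, were Etnppl, Rida, Slc3a1, Fgfr2 and Gucy2c on the higher side and Kit, Rnase4, Ang, Cyp2c38, Cyp2c50, Slco1a1, Aox3 and Mup9 on the lower side. Without zone 2 replicate 3 the blocked fit lost Etnppl, Rida, Fgfr2 and Gucy2c, at limma adjusted p of 0.097, 0.265, 0.144 and 0.169, while Slc3a1 (0.0419) and the 8 lower genes passed. Slc3a1, which carries cystine and basic amino acids, had 116, 108 and 80.0 FPKM in zone 1 and 40.4, 36.3 and 6.48 FPKM in zone 2 (blocked limma adjusted p = 0.0044). Slco1a1, an organic anion transporter, had 1.31, 1.08 and 1.5 FPKM in zone 1 and 24.4, 13.3 and 11.8 FPKM in zone 2 (blocked limma adjusted p = 0.000564). Kit, the receptor of stem cell factor, had 1.81, 2.05 and 0.49 FPKM in zone 1 and 11.8, 7.01 and 3.24 FPKM in zone 2 (blocked limma adjusted p = 0.0196). The zones did not overlap for these 3, whereas they did for Ang, Mup9 and Gucy2c. Rnase4 and Ang share a locus, and Mup9 and the Cyp2c genes have close copies, so their levels are uncertain.

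The same comparison in the other stages gave each gene its own values. Of the 12 NP and dpc8 libraries of zones 1 and 2, 3 had Y-linked signal of more than 5 FPKM, NP zone 1 replicate 1 (15.4 FPKM), dpc8 zone 1 replicate 1 (20.5 FPKM) and dpc8 zone 2 replicate 2 (16.1 FPKM). Of the 17 genes 6 passed the test between zones 1 and 2 in NP and 7 at dpc8, where 0.136% of all genes did at either stage. Without every library of more than 5 FPKM of Y-linked genes, a fit chosen after seeing the data, it was 10 in NP (0.227% of all genes) and 9 at dpc8 (0.245%). The sign was that of dpc16 in 16 genes at both stages, with and without those libraries. Cyp2e1 differed by -3.77 in NP and by -4.08 at dpc8, Lect2 by -2.52 and -2.51, and Lamc3 by 2.05 and 1.56. Gulo, at -1.96 at dpc16, stood at -2.91 in NP and -2.97 at dpc8. Ccdc38, at 2.09 at dpc16, stood at 0.25 and 0.24. The gene 2210407C18Rik was listed at 0 in all 9 NP libraries, in all 9 dpc8 libraries and in zone 3 at dpc16.

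**Figure D4:**
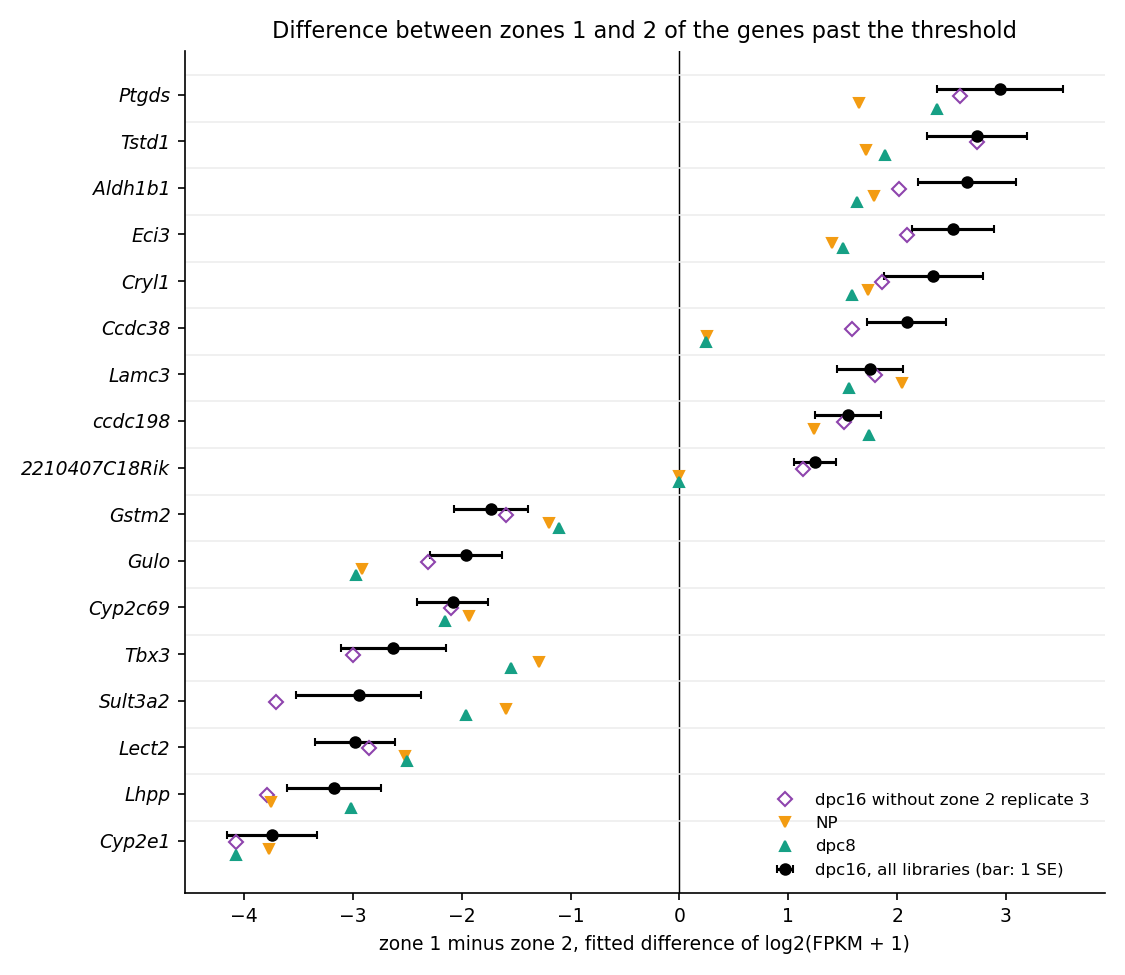
Fitted difference of log2(FPKM + 1), zone 1 minus zone 2, of the 17 genes at dpc16 (points with bars of 1 SE), at dpc16 without zone 2 replicate 3, in NP and at dpc8. Cyp2e1 stands at -3.75, -3.77 and -4.08 at dpc16, in NP and at dpc8, while 2210407C18Rik stands at 1.25 at dpc16 and at 0 in NP and at dpc8.

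No gene passed the limma test of whether its zone difference at dpc16 was unlike that in NP (477 genes, or 4.32%, at an unadjusted p under 0.05, and 0 past the threshold with the replicate block) or that at dpc8 (330 genes, or 2.99%, and 0 with the block). Against NP the smallest p belonged to Thrb, a thyroid hormone receptor, whose zone difference was 1.05 at dpc16 and -0.73 in NP. The stages differed by 1.78 (SE 0.39, limma adjusted p = 0.782). It was followed by 2210407C18Rik at 1.25 (SE 0.28), which entered the comparison only through dpc16 zone 1, and Cyp3a41a at 2.46 (SE 0.59), a cytochrome P450 with close copies.

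Against dpc8 the smallest p belonged to Wdr75, a factor of ribosome assembly, with 7.96, 7.78 and 6.24 FPKM in zone 1 and 16.5, 15.9 and 29.2 FPKM in zone 2 at dpc16. Zone 2 replicate 3 was its highest library. The stages differed by -2.30 (SE 0.46, limma adjusted p = 0.701). Abca8a, a lipid transporter, had 15, 22.2 and 32 FPKM in zone 1 and 7.14, 5.19 and 3.45 FPKM in zone 2 at dpc16, and its stages differed by 2.56 (SE 0.58, limma adjusted p = 0.926).

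In the lists of urea synthesis, amino acid breakdown, gluconeogenesis and lipogenesis no gene passed the test without the block. The 8 urea cycle genes all had positive differences, with a median of 0.96, and 3 lay above with no overlap (37.5%, beside 5.04% of all genes). Ass1, which joins citrulline and aspartate, had 1327, 1175 and 1599 FPKM in zone 1 and 984, 887 and 287 FPKM in zone 2. Cps1, the entry enzyme of the cycle, had 1088, 1173 and 1142 FPKM in zone 1 and 869, 1005 and 218 FPKM in zone 2. Arg1, which was more abundant than Cps1, had 1421, 1477 and 1064 FPKM in zone 1 and 977, 1094 and 216 FPKM in zone 2. Its zones overlapped. Zone 2 replicate 3 was far below the others for each of these genes. Without it the median of the list was 0.31, with 5 of the 8 genes positive and 3 negative, and with no overlap Asl, Cps1 and Ass1 lay above (10.2% of all genes) and Slc25a13 and Nags below (9.23%).

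Of 30 genes of amino acid breakdown 29 had positive differences, with a median of 0.66, and 0.13 without zone 2 replicate 3. With no overlap, 8 lay above (26.7%, beside 5.04% of all genes) and Oat, which passed with the block, lay below. Without zone 2 replicate 3, 8 lay above and 1 below, beside 10.2% and 9.23% of all genes. Tat, which breaks down tyrosine, had 1794, 1432 and 1228 FPKM in zone 1 and 1832, 1461 and 259.8 FPKM in zone 2. Hpd, the next enzyme of that pathway, had 1197, 966 and 1156 FPKM in zone 1 and 1126, 1044 and 387 FPKM in zone 2. The zones overlapped for both, and zone 2 replicate 3 was the lowest library.

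Of 13 gluconeogenesis genes 12 had positive differences, with a median of 1.04, and 5 lay above with no overlap (38.5%, beside 5.04% of all genes). Pck1, the enzyme that commits carbon to glucose synthesis, had 1336, 1476 and 1465 FPKM in zone 1 and 999.8, 1148 and 213 FPKM in zone 2. Fbp1, fructose bisphosphatase, had 1515, 1391 and 1278 FPKM in zone 1 and 1013, 939 and 217 FPKM in zone 2. Zone 2 replicates 1 and 2 lay between zone 1 and zone 2 replicate 3 in both. Without zone 2 replicate 3 the median was 0.41, and again 5 lay above with no overlap, beside 10.2% of all genes. The 14 lipogenesis genes were all positive with a median of 0.86, and 0.75 without that library. Within replicates 1, 2 and 3 the mean differences of the list were 0.20, 0.37 and 1.82, and with the hepatocyte core set equal the median was 0.26. Scd1, a fatty acid desaturase, had 462, 561 and 609 FPKM in zone 1 and 204, 477 and 190.0 FPKM in zone 2, and the zones overlapped.

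The 12 hepatocyte core genes were all positive too, with a median of 0.60, and -0.02 without zone 2 replicate 3. Alb stood at 203747, 163523 and 151511 FPKM in zone 1 and 203116, 154728 and 41785 FPKM in zone 2. The same pattern held for coagulation genes (18 of 18 positive, median 0.63, and 0.07 without the library), complement genes (18 of 18, 0.59 and 0.04) and apolipoproteins (13 of 13, 0.66 and 0.00). All 72 cytosolic ribosomal protein genes were negative, with a median of -0.31, and -0.05 without it. Zone 2 replicate 3 decided these medians, and none of the genes passed the test.

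Levels were also taken relative to the hepatocyte core of the same library, a measure chosen after the data were seen. The periportal list summed to 2.58%, 2.52% and 3.3% in zone 1 and 1.48%, 1.54% and 1.43% in zone 2. The pericentral list summed to 0.332%, 0.262% and 0.705% in zone 1 and 1.18%, 1.06% and 2.65% in zone 2. On this scale zone 2 replicate 3 was close to its group for the periportal list and above it for the pericentral list. The gluconeogenesis list stood at 3.07%, 3.26% and 2.86% in zone 1 and 2.21%, 2.39% and 2.22% in zone 2, and the urea cycle list at 1.74%, 1.97% and 1.92% in zone 1 and 1.25%, 1.58% and 1.34% in zone 2. No list of these 4 overlapped between the zones, nor did the Wnt targets, at 0.00679%, 0.00793% and 0.00768% in zone 1 and 0.0136%, 0.0217% and 0.034% in zone 2, or the stellate cell markers, at 0.0481%, 0.0485% and 0.0585% in zone 1 and 0.0665%, 0.0663% and 0.147% in zone 2. With the Kupffer cell markers, which lay below, 3 of 35 lists lay above and 4 below with no overlap, and the other 28 overlapped. All 9 higher genes stayed above and all 8 lower genes below with no overlap, where 0.843% of all genes were above and 7.88% below. These genes had been chosen by the same libraries, so this is a description. In the limma fit with the hepatocyte core set equal, Aldh1b1 was the only one of the 9 higher genes that passed, and 2210407C18Rik was at 0.64 (limma adjusted p = 0.509). Aldh1b1 stood at 0.114%, 0.126% and 0.221% in zone 1 and 0.0379%, 0.0336% and 0.0367% in zone 2, with zone 2 replicate 3 close to its group.

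Drug-handling families split by member. Of 52 cytochrome P450 genes of families 1 to 4, 29 had positive and 23 negative differences, and Cyp2e1 and Cyp2c69 passed the test. With no overlap, 2 lay above (3.85%, beside 5.04% of all genes) and 10 below (19.2%, beside 3.91%). The median was 0.11, and -0.32 without zone 2 replicate 3. Without that library 3 lay above and 14 below, beside 10.2% and 9.23% of all genes. Cyp2a4, a steroid hydroxylase picked after its values were seen, had 2010.2, 1456 and 2497 FPKM in zone 1 and 1127, 849.9 and 448 FPKM in zone 2, the reverse of Cyp2e1 in every library (limma adjusted p = 0.76). Of 48 conjugating enzymes, 28 were positive and 20 negative, and Sult3a2 and Gstm2 passed (0.154% of all genes did). With no overlap, 6.25% lay above and 8.33% below. Their median was 0.17, and -0.08 without that library. Cyp7a1, the rate-limiting enzyme of bile acid synthesis, also picked after its values were seen, had 1.35, 2.24 and 12.9 FPKM in zone 1 and 15.5, 16.6 and 17.8 FPKM in zone 2 (limma adjusted p = 0.871).

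**Figure D5:**
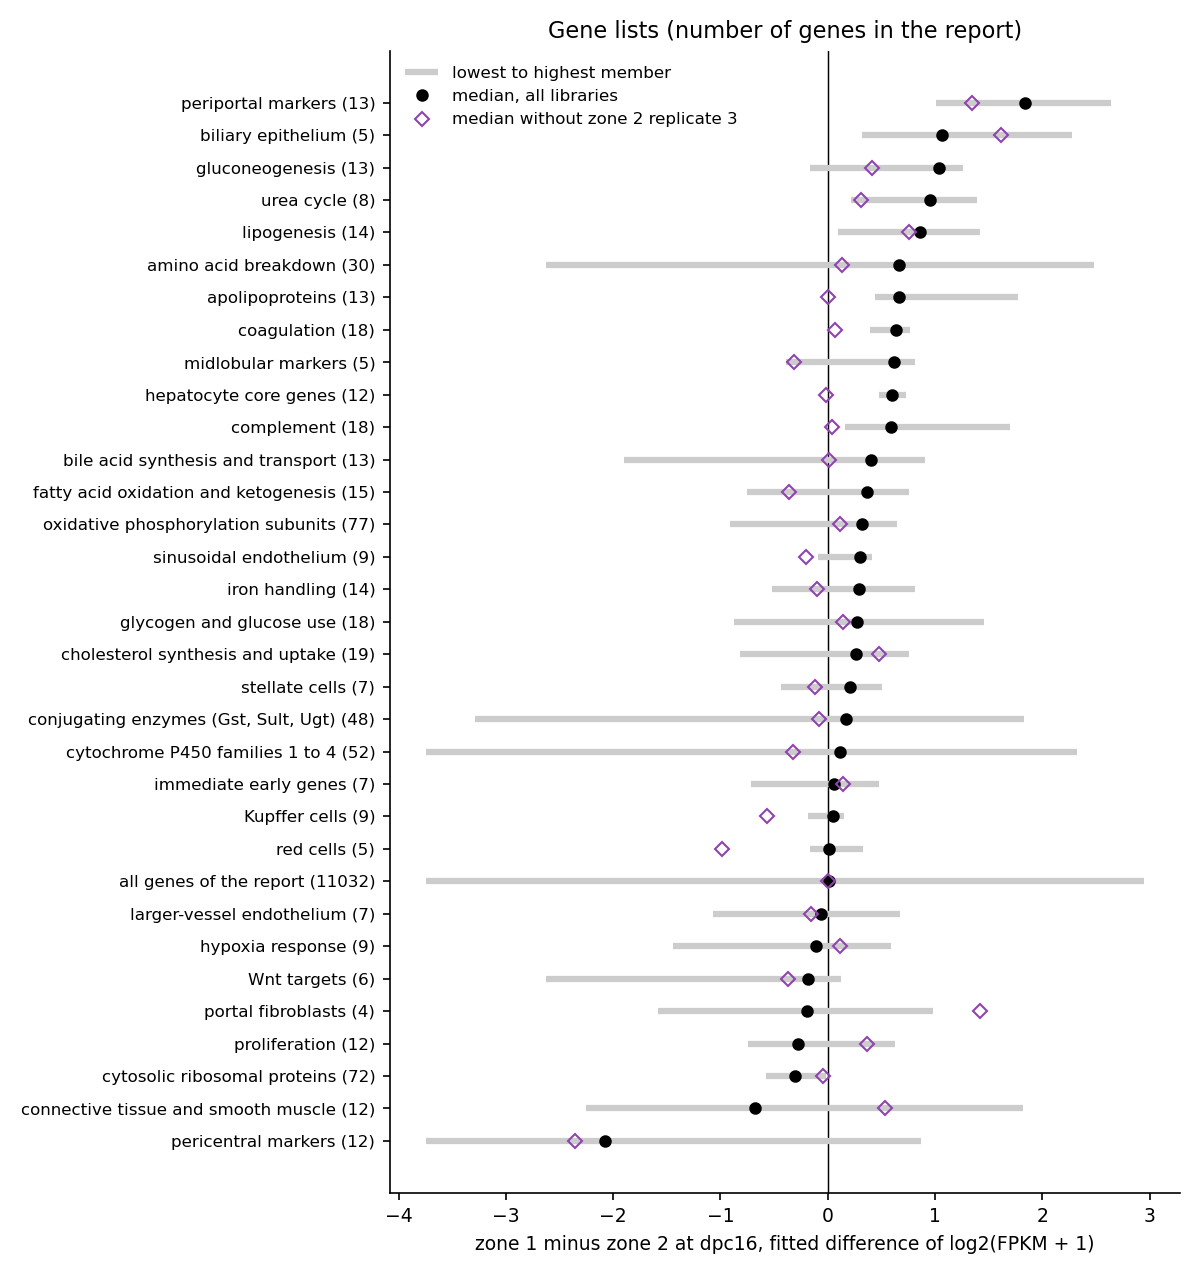
Fitted difference of log2(FPKM + 1), zone 1 minus zone 2 at dpc16, for gene lists with at least 4 genes, the number of genes in brackets. Dots are medians over genes with all libraries, diamonds medians without zone 2 replicate 3, and grey bars run from the lowest to the highest member. Periportal markers lie highest at 1.84 and pericentral markers lowest at -2.07, and the diamonds of the hepatocyte core, coagulation and apolipoprotein lists lie near 0.

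No marker of another cell type passed the test. Of 9 biliary epithelium genes 5 entered, all with positive differences, with a median of 1.07, and 1.61 without zone 2 replicate 3. Spp1, a secreted protein of bile duct cells, had 35.3, 34.2 and 69.3 FPKM in zone 1 and 4.9, 1.46 and 53.4 FPKM in zone 2. Krt19, a keratin of bile ducts, had 1.47, 1.66 and 3.35 FPKM in zone 1 and 0, 0 and 8.11 FPKM in zone 2. Sox9, a transcription factor of bile duct cells, had 2.02, 3.95 and 2.06 FPKM in zone 1 and 0.043, 0.633 and 1.93 FPKM in zone 2 (limma adjusted p = 0.76). The whole list summed to 48.6, 58.4 and 92.2 FPKM in zone 1 and to 13.5, 13.3 and 67.2 FPKM in zone 2. The part of bile duct cells in the genes higher in zone 1 was not tested.

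Connective tissue genes were set by 1 library. Tagln, a smooth muscle protein, had 3.84, 7.09 and 76.1 FPKM in zone 1 and 1.47, 0.828 and 2271 FPKM in zone 2, and Acta2, the actin of smooth muscle, had 0.307, 1.09 and 40.0 FPKM in zone 1 and 0.0462, 0.0331 and 1582 FPKM in zone 2. Zone 2 replicate 3 was higher than the other 5 libraries for both, followed by zone 1 replicate 3. The median of the 12 genes was -0.68, and 0.54 without zone 2 replicate 3, so its direction depended on that library. The 9 genes of the sinusoidal endothelium had a median of 0.30, and -0.20 without it, and the 7 stellate cell genes 0.21 and -0.11.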

How the data were processed

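The authors sequenced ribosome-depleted RNA of 27 libraries. Reads were trimmed with cutadapt, aligned to mm10 with HISAT2 2.1.0 and kept where unique, and the deposited values are FPKM per protein-coding gene from Cuffdiff (Cufflinks 2.2.1), as the authors' methods and processing notes state. FPKM divides by transcript length and mapped reads, so abundant RNA in 1 library lowers all other values there. Positions came from GENCODE release 21, in which 21609 of 21823 identifiers were found.

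Tests used limma 3.58.1 in R 4.3.3 (trend, robust, two-sided) on log2(FPKM + 1), with 1 mean for each of 9 groups and 18 residual degrees of freedom that pool the spread of all groups. The 12952 genes with FPKM of at least 1 in at least 3 of the 27 libraries were tested and adjusted together by the Benjamini-Hochberg method, and calls were counted among the 11032 genes. The procedure was tested on simulated data. Depth was read from the steps of the low values.

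Deviations from the zone mean correlated at 0.29, 0.266 and 0.358 between same-numbered zone 1 and zone 2 libraries, and at -0.327 to 0.134 between others, so the dpc16 libraries were taken as paired from the data. The block is 1 term for each stage and replicate number. No 2 libraries were identical.

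Named are the zone genes of the study, up to 15 genes per direction past the threshold with no overlap between zones, list members past the threshold, up to 4 of the most abundant members where none passed, and, for tests of differences, up to 5 genes per direction or the 3 smallest p. Other names are marked, and 1 gene that the rule names is not reported here. The genes and lists were chosen with earlier results of these data known. Alternatives covered the pseudocount, filters, scaling, weights, covariates and left-out libraries. Promoters and figures used Python 3.11.15 and matplotlib 3.10.9.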

Additional observations from a re-analysis of the deposited data

How the results depend on the processing

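The count of 17 genes between zones 1 and 2 moved with several choices. It was 9 with a pseudocount of 0.1 (2 higher, 7 lower), 11 after scaling to a common median, 59 with array weights, 51 with connective tissue as a covariate and 36 without the libraries with more than 5 FPKM of Y-linked genes. With the replicate number as a block it was 32. Fitted on the 6 libraries alone limma found 0 genes (363 at an unadjusted p under 0.05), and on the dpc16 libraries, an alternative chosen after seeing the data, 2 genes, Lect2 and Slco1a1. It was 10 to 16 with 1 library left out. With the hepatocyte core set equal, also chosen after seeing the data, the median of all genes shifted to -0.60 and 1 higher and 23 lower genes passed, 8 of them among the 17. Quantile normalization gave 13.

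Of the listed genes 9 passed, among the 17 of all 11032 genes (0.154%). The lists were chosen with earlier results of these data known, so this count is a description. It became 24 with array weights, 14 with the replicate block, 19 with the covariate and 15 without the libraries with Y-linked genes. It was 15 with the block and without zone 2 replicate 3, 0 on the 6 libraries, 1 on the dpc16 libraries, and 5 to 8 with 1 library left out. The tests against NP and dpc8 each found 1 gene with no filter, 2210407C18Rik. The test of unequal steps found 22 genes with array weights, 5 without the libraries with Y-linked genes (Cfp, Clec4f, Hal, Sfxn1 and Aldh1b1), and 0 to 1 with 1 library left out. In these 3 tests the block changed no call with all libraries, and without zone 2 replicate 3 it removed that of Clec4f.

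Glul and Axin2, at 0.05 and 0.07, changed sign. Glul stood at -0.021 under quantile normalization, -0.11 with array weights, -0.10 without the libraries with Y-linked genes, -0.56 with the hepatocyte core set equal, and -0.10 to 0.13 with 1 library left out (-0.10 without zone 2 replicate 3 and -0.047 without zone 1 replicate 3). Axin2 stood at -0.32 with array weights, -0.012 with the covariate, -0.15 without the libraries with Y-linked genes, -0.18 with the block and without zone 2 replicate 3, -0.53 with the hepatocyte core set equal, and -0.29 to 0.36 with 1 library left out (-0.29 without zone 1 replicate 3 and -0.15 without zone 2 replicate 3). The causes were not tested.

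At 1 read per kilobase worth up to 0.0962 FPKM, levels near the minimum rest on few reads.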

Other observations

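Kupffer cells are the resident macrophages of the sinusoids, and with all libraries none of their 9 markers passed the test between zones 1 and 2 or that of unequal steps. Relative to the hepatocyte core, a measure chosen after the data were seen, the sum of the markers was 0.0775%, 0.0637% and 0.0703% in zone 1 and 0.101%, 0.108% and 0.102% in zone 2, and 0.042%, 0.0516% and 0.048% in zone 3. Zone 2 was the highest zone in every replicate. In FPKM zone 2 replicate 3 did not follow the other zone 2 libraries, and Clec4f, a lectin of Kupffer cells, had 43.4, 36.4 and 39 FPKM in zone 1 and 60.6, 57.7 and 15.5 FPKM in zone 2 and 12.3, 12.9 and 9.7 FPKM in zone 3. Without that library the median difference of the list between zones 1 and 2 was -0.57, against 0.05 with it, and Clec4f then passed the test of unequal steps (difference of steps -2.83, limma adjusted p = 0.0499). With the replicate block as well, that call was lost (-2.70, limma adjusted p = 0.177).

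A set of 22 genes was at 1 FPKM or more in all 3 zone 1 libraries and in no zone 2 library, and 16 genes showed the opposite. The following were named after their values were seen. Epcam, an adhesion molecule of bile duct cells, had 1.26, 2.8 and 4.04 FPKM in zone 1 and 0, 0.236 and 0 FPKM in zone 2. Il33, an alarm cytokine, had 1.13, 1.56 and 1.47 FPKM in zone 1 and 0.109, 0.156 and 0.935 FPKM in zone 2. Wnt2, a Wnt ligand of endothelial cells, had 0.187, 0.388 and 0.624 FPKM in zone 1 and 1.2, 1.54 and 1.42 FPKM in zone 2, and Avpr1a, the liver receptor of vasopressin, had 0.0389, 0.376 and 0.623 FPKM in zone 1 and 1.82, 2.44 and 2.65 FPKM in zone 2. Kcne3, a potassium channel subunit with 3.59, 2.57 and 0.705 FPKM in zone 1 and 0, 0 and 0 FPKM in zone 2, passed the test with an adjusted p of 0.0447 in limma but was at the minimum in only 2 libraries.

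Replicate 3 differed from the others in metabolic lists. The 15 fatty acid oxidation and ketogenesis genes summed to 11887, 10466 and 3277 FPKM in zone 1, to 12615, 10264 and 1293 FPKM in zone 2 and to 10888, 10618 and 2377 FPKM in zone 3. Lipogenesis genes summed to 1445, 1471 and 3337 FPKM in zone 1, to 1112, 1269 and 897 FPKM in zone 2 and to 975, 1255 and 1450.3 FPKM in zone 3. Relative to the hepatocyte core they stood at 0.482%, 0.556% and 1.3% in zone 1 and 0.367%, 0.506% and 1.26% in zone 2 and at 0.435%, 0.589% and 1.42% in zone 3, so that replicate 3 was the highest in every zone on this scale, and in zones 1 and 3 but not zone 2 in FPKM. Fasn, the fatty acid synthase, picked after its values were seen, had 43, 41.1 and 310.3 FPKM in zone 1 and 36.6, 25.6 and 77 FPKM in zone 2. As the labels do not say what the replicate number stands for, the source of these levels was not tested.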
